A study of Homo sapiens with 80 samples.

Results

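Day 4 of cardiac differentiation was compared between 2 differentiations of WTC11, a human induced pluripotent stem cell line, of which 1 ended with high and 1 with low cardiomyocyte purity. The comparison used 8 poly(A) RNA libraries, chosen by class and day in the labels: 4 wells of the high purity differentiation and 4 wells of the low purity differentiation, of 56 libraries in the multi-omic experiment and 80 in the series. High purity cells were at passage 52 and low purity cells at passage 69. Both were seeded with Y-27632, received CHIR99021, which activates WNT signalling, on day 0 and the WNT secretion inhibitor IWP2 on day 2, and were kept in B27 supplement without insulin until day 6. The class of each differentiation was assigned later, from the share of cells staining for cardiac troponin T by flow cytometry on day 16; those shares are not analysed here. The wells of a class shared 1 differentiation, so p-values here measure the spread between wells, and purity, passage and differentiation cannot be told apart. The question is which transcripts already differed on day 4, and which of these differences lay in genes that both differentiations moved in the same direction from day 2 to day 6.

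WNT activation takes pluripotent cells through a state like the primitive streak, marked by the T-box factors TBXT and EOMES, into mesoderm. MESP1 marks the earliest heart-forming mesoderm, and lowered WNT signalling afterwards lets cardiac mesoderm turn on factors such as NKX2-5, TBX5 and GATA4 and then the genes of the sarcomere, the contractile unit of muscle. Mesoderm under other signals forms paraxial mesoderm, the source of the somites, or smooth muscle, epicardial and stromal cells.

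The high purity wells had 12246678 to 15740106 reads and the low purity wells 9334303 to 11386125 reads. Levels are given as TPM, transcript abundance normalized for gene length and depth. RNR2, a mitochondrial ribosomal RNA, took up 12.6% to 17.0% of all TPM in the high purity wells and 16.0% to 16.4% in the low purity wells. The small nuclear RNA gene RN7SK held 5.84% to 10.2% and 6.72% to 7.18%. Class labels were checked with 19 genes that were called the same way between the classes on days 0, 2, 6, 8 and 16: on day 4 all 19 ran in that direction and 15 were called. With day 0 left out of the rule there were 104 such genes, of which 97 ran in that direction on day 4 and 54 were called. The mesoderm receptors PDGFRA and KDR were at 175 TPM or more in all 8 wells. Fewer cells of a type and less RNA per cell cannot be told apart in bulk RNA.

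There were 19358 genes that reached 1 TPM in 3 or more of the 8 wells, and 1957 of them (10.1%) were called different, with a limma adjusted p under 0.05 and an at least 2-fold difference on the log2(TPM + 1) scale. Of these 914 (4.72% of tested genes) had their higher level in high purity and 1043 (5.39%) in low purity. In 7562 genes (39.1%) the 4 wells of 1 class all lay above the 4 of the other, so separate wells alone were common. A gene under 1 TPM in all 4 wells of 1 class passed the filter only through the other class. For such genes the direction was largely set by the filter. Differences are given below as log2(TPM + 1), high minus low, with the standard error of the limma fit. Over all tested genes the median difference was 0.00778.

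**Figure D1:**
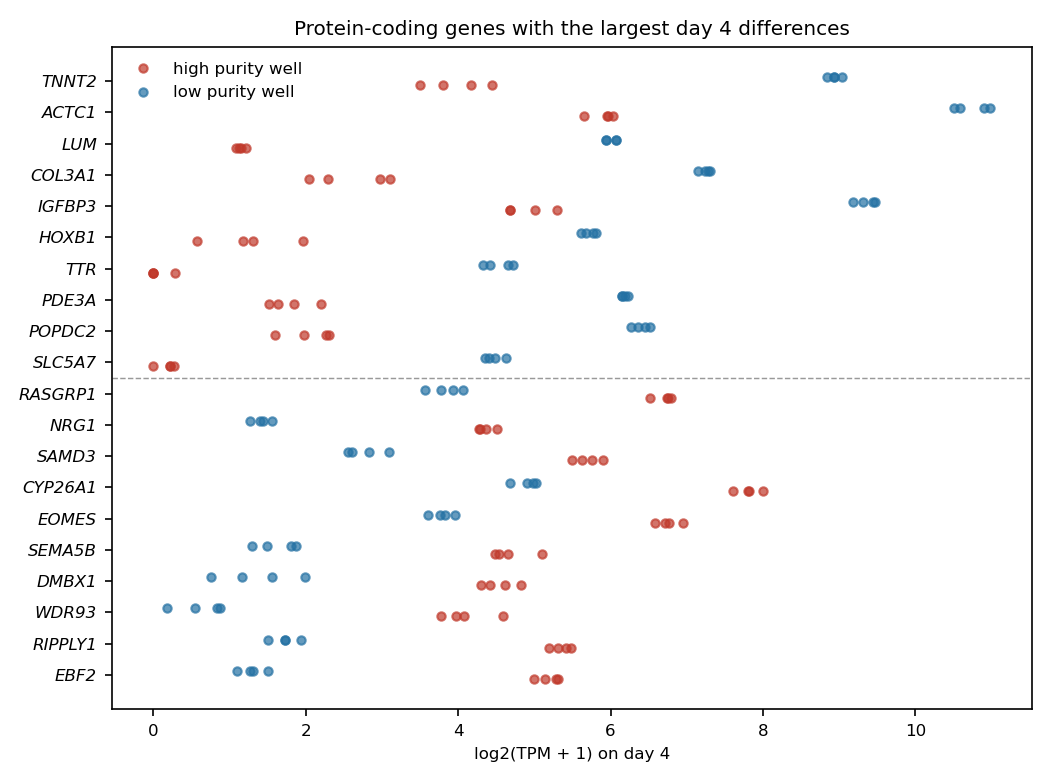
Each point is 1 of the 8 day 4 wells, plotted as log2(TPM + 1), for the 10 protein-coding genes with the largest differences in each direction (higher in low purity above the dashed line). Only genes with separate wells and a mean of at least 10 TPM in the higher class could enter. The gap between the red high purity and blue low purity wells was therefore set by that choice.

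Sarcomere genes were far more abundant in the low purity wells on day 4. TNNT2, which encodes cardiac troponin T and lies on chromosome 1 from 201359014 to 201377680 (GRCh38), was at 17.0, 12.9, 10.3 and 20.8 TPM in the high purity wells and at 489, 486, 457 and 524 TPM in the low purity wells. No well of either class came near the other class, and the difference was -4.94 ± 0.27 (limma adjusted p 1.35e-19). ACTC1, cardiac alpha-actin, was at 61.0, 49.2, 61.6 and 64.5 TPM in high purity and at 1916, 1537, 1453 and 2022 TPM in low purity. Its difference was -4.83 ± 0.15 (limma adjusted p 2.83e-28). MYH6, the alpha heavy chain of cardiac myosin, was at 4.45, 3.66, 5.51 and 10.3 TPM against 110, 103, 99.4 and 118 TPM. Well 4 was the highest of the high purity wells for both TNNT2 and MYH6.

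Of 21 sarcomere genes, 19 passed the filter on low values, 17 were called with the higher level in low purity and 1 in high purity, with a median difference of -2.18. MYL7, the atrial regulatory light chain of myosin, had a mean of 40.9 TPM in high purity against 501 TPM, and TTN, the giant spring protein titin, 64.4 and 181 TPM. The exception was MYL3, a ventricular essential light chain, at 16.8, 12.8, 25.9 and 23.6 TPM in high and 3.74, 5.60, 7.45 and 7.26 TPM in low purity (1.55 ± 0.37, limma adjusted p 0.000536). TNNI3, the adult cardiac troponin I, had overlapping wells and means of 38.0 and 35.9 TPM. MYH7 and MYBPC3 did not pass the filter and reached at most 0.465 and 1.16 TPM. The sarcomere genes were therefore uneven: TNNT2, ACTC1 and MYH6 differed most, and 2 of the 19 did not share the direction.

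Serum response factor is a transcription factor that binds the CArG box and is known to act on actin and other muscle genes. The box is a motif of 10 letters that starts with CC, ends with GG and holds only A or T between. That pattern, though not each single box, reads the same on both strands. Promoters in the RefSeq table (GRCh38.p14), each from 250 bases before to 50 bases after the start of a gene, were searched for the box. Of 21 sarcomere genes 15 had a promoter there and 3 of these (20%) held the box, namely ACTC1, MYL7 and LDB3, the gene of a Z-disc protein. Among 12 smooth muscle genes 8 had a promoter and 2 (25%) held the box, ACTA1 (skeletal alpha-actin) and ACTG2. The share was 1.29% over 27305 promoters (351), 1.06% over 12591 promoters of tested genes (134), 3.1% over 612 promoters of genes called higher in low purity (19) and 1.32% over 531 promoters of genes called higher in high purity (7). A match describes the letters and not a bound site. The 150 bases before the start are shown for the 4 genes of the sarcomere and smooth muscle lists with a box that were called higher in low purity, with the box in capitals.
ACTC1 (chr15:34795550-34795699, minus strand): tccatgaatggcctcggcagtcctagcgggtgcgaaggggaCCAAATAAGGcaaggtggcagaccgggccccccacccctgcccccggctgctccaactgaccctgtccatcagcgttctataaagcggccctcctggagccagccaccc
MYL7 (chr7:44141333-44141482, minus strand): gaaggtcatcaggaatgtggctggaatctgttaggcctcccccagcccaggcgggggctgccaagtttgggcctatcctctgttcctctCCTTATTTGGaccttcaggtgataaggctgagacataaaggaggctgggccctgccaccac
LDB3 (chr10:86668361-86668510, plus strand): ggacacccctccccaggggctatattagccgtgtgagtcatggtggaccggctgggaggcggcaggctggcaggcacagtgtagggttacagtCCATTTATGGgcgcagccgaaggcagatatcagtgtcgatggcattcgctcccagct
ACTA1 (chr1:229434095-229434244, minus strand): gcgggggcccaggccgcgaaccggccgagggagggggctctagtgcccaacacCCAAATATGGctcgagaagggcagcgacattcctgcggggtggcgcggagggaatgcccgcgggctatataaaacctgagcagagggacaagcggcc
The first base of the box lay 109 bases before the start in ACTC1, 61 in MYL7, 57 in LDB3 and 97 in ACTA1. The differences of these genes were -4.83, -3.57, -2.21 and -1.70. ACTG2, with 2 boxes and overlapping wells, was not called.

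Most tested genes of calcium handling, natriuretic peptides and smooth muscle were also called higher in low purity. PLN, the phospholamban that restrains the calcium pump of the sarcoplasmic reticulum, was at 2.44, 1.39, 1.16 and 4.09 TPM in high purity and 56.9, 54.6, 44.5 and 50.7 TPM in low purity (-4.03 ± 0.23, limma adjusted p 2e-19). NPPB, the B-type natriuretic peptide, was at 20.9, 24.3, 19.6 and 8.81 TPM against 140, 105, 120 and 151 TPM. Of 9 genes in that list 7 were tested and 6 called higher in low purity. The exception was ATP2A2, which encodes the calcium pump itself (means of 122 and 149 TPM, not called). ACTA2, smooth muscle alpha-actin, was at 4.04, 5.03, 6.17 and 4.97 TPM in high purity and 116, 92.4, 95.7 and 120 TPM in low purity. Of 12 smooth muscle genes 10 were tested, 7 were called with the higher level in low purity and 0 in high purity, and their median was -1.70. DES and ACTG2 had overlapping wells, and MYH11 was at 0 TPM in all 8 wells. Among the 10 largest differences towards low purity were also IGFBP3, a binding protein for insulin-like growth factors, at 24.6 to 38.4 TPM against 582 to 712 TPM, and PDE3A, a cyclic nucleotide phosphodiesterase of heart and vessel muscle, at 1.87 to 3.60 TPM against 69.9 to 74.4 TPM. POPDC2, a cyclic AMP-binding membrane protein of muscle, was at 2.01 to 3.95 TPM against 76.1 to 90.7 TPM. SLC5A7, a choline transporter, was at or under 0.203 TPM in high and at 19.4 to 23.8 TPM in low purity. It passed the filter only through the low purity wells.

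Cardiac transcription factors had a median difference of -0.58, against -2.18 for the tested sarcomere genes. NKX2-5, the homeobox factor of early heart cells, was at 6.59, 5.24, 5.72 and 4.32 TPM in high and 7.65, 9.53, 8.38 and 9.51 TPM in low purity. These wells did not overlap, but the difference of -0.58 ± 0.25 was not called (limma adjusted p 0.056). GATA4 had 52.5 to 61.5 TPM against 77.8 to 80.8 TPM, and HAND1 230 to 243 TPM against 340 to 412 TPM, both under the 2-fold threshold. ISL1, a factor of the second heart field, was the other way round at 45.4 to 63.5 TPM against 29.8 to 32.4 TPM (0.77 ± 0.13), also under it. Of the 11 factors, all tested, 3 were called higher in low purity (MEF2C, ZFPM2 and TBX5) and 0 higher in high purity. TBX5 was at -1.05, and without high purity well 2 or 3 or low purity well 2 or 3 it lay at -0.92 to -0.98 and was no longer called.

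**Figure D2:**
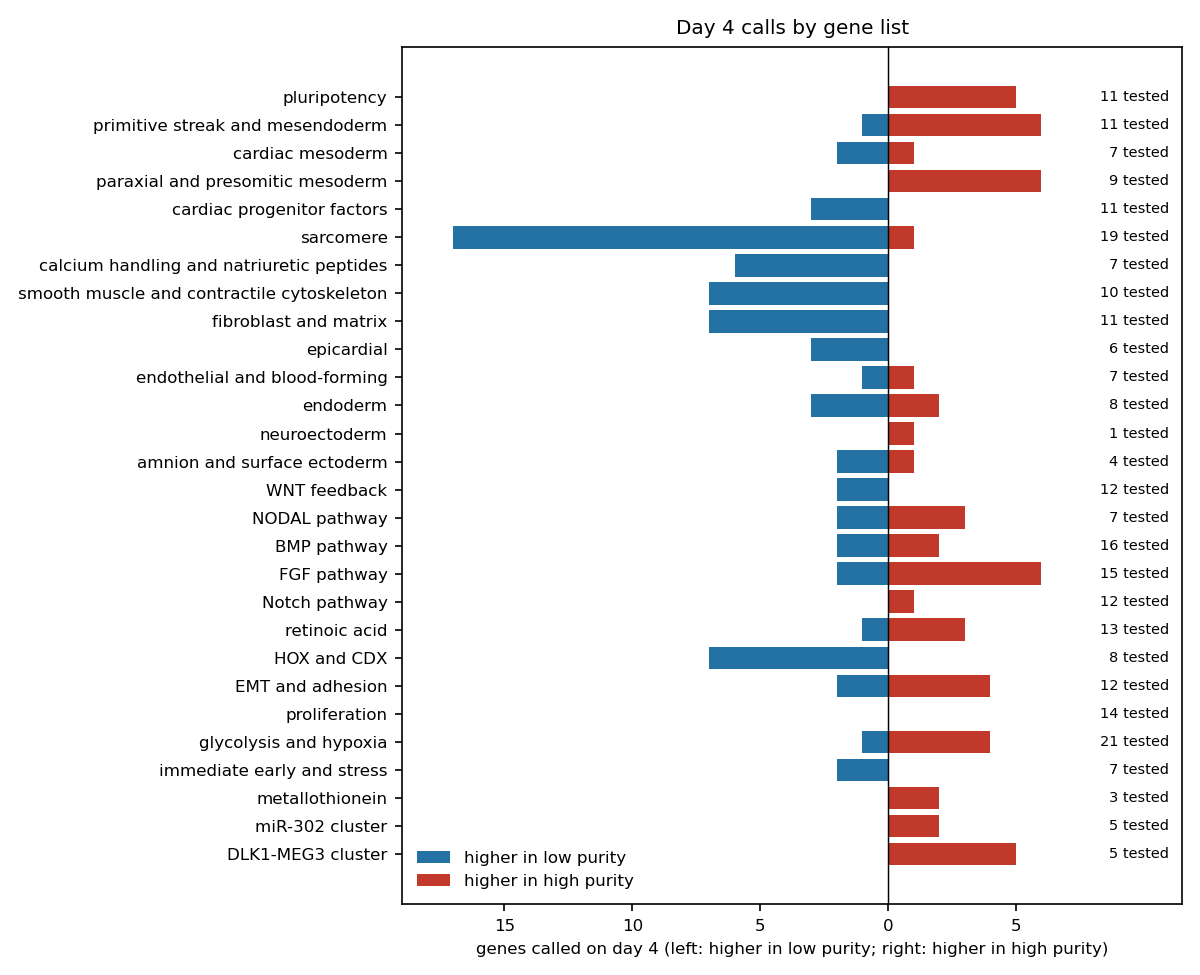
Bars count the genes of each list that were called on day 4, to the left where higher in low purity and to the right where higher in high purity, and the number tested stands at the right. The sarcomere list has 17 calls to the left and 1 to the right, and the paraxial list 6 to the right and 0 to the left.

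Several matrix and epicardial genes were also called higher in low purity. LUM, a collagen-binding proteoglycan of connective tissue, was at 1.18, 1.33, 1.11 and 1.21 TPM in high purity and 60.6, 66.1, 60.5 and 66.1 TPM in low purity (-4.79 ± 0.13, limma adjusted p 2.65e-30). COL3A1, a fibrillar collagen, was at 6.82, 3.13, 3.89 and 7.64 TPM against 141, 155, 157 and 150 TPM. Of 12 fibroblast and matrix genes 11 were tested, 7 were called with the higher level in low purity and 0 in high purity (median -1.68). The 4 that were not called included FN1, fibronectin, with means of 1175 and 1464 TPM. DCN, another defining stromal proteoglycan, reached at most 0.227 TPM. Of 8 epicardial genes 6 were tested and 3 called, all higher in low purity. BNC1, a zinc-finger factor of the epicardium, was at 5.15, 3.62, 5.39 and 5.43 TPM against 46.4, 44.2, 45.1 and 45.8 TPM (-2.96 ± 0.12, limma adjusted p 3.56e-24). The epicardial factors WT1 and TBX18 were called in the same direction but stayed at or under 1.95 and 3.80 TPM in every well. The summed TPM of the fibroblast list was 1351 to 1740 in high and 2740 to 2817 in low purity wells, and that of the epicardial list 10.5 to 17.5 against 58.6 to 61.1. Whether stromal or epicardial cells had a part in the other low purity differences was not tested.

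HOX genes, which give cells their place along the body axis, formed another group higher in low purity. HOXB1 was at 2.91, 1.26, 0.488 and 1.47 TPM in high purity and 50.3, 55.2, 53.6 and 48.0 TPM in low purity (-4.39 ± 0.23, limma adjusted p 2.67e-20). HOXB4 was at 10.3, 10.5, 9.54 and 12.6 TPM against 58.7, 63.9, 52.4 and 58.3 TPM. HOXB5 and HOXB6 differed by -3.17 and -3.12. Of 23 HOX and CDX genes only 8 passed the filter, and 7 were called higher in low purity, with a median of -2.08. HOXB6, at or under 0.531 TPM in the high purity wells, passed only through the low purity wells, so its direction was largely set by the filter. The 6 tested HOXB genes were all called, while HOXB7, HOXB8 and HOXB9, further along the cluster, reached at most 1.44, 0.676 and 0.0764 TPM. RDH10, which makes retinaldehyde, the precursor of retinoic acid, was higher in low purity at 62.2 to 76.1 TPM against 8.39 to 15.1 TPM. CYP26A1, which breaks retinoic acid down, was at 222, 225, 255 and 194 TPM in high purity and 24.6, 31.6, 30.6 and 28.8 TPM in low purity (2.92 ± 0.20, limma adjusted p 2.95e-16). ALDH1A2, the enzyme that makes retinoic acid in mesoderm, did not pass the test (0.01). Of 13 tested retinoic acid genes 3 were called higher in high and 1 higher in low purity.

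Several primitive streak and paraxial genes were among those higher in high purity. EOMES was at 108, 104, 122 and 95.0 TPM in high purity and at 14.6, 11.1, 12.6 and 13.2 TPM in low purity (2.97 ± 0.12, limma adjusted p 6.59e-24). MESP1 was at 5.42, 5.85, 6.62 and 4.58 TPM against 0.263, 0.128, 0.577 and 0.117 TPM, so it was low in every well. It passed the filter only through the high purity wells, so its direction was largely set by the filter. TBXT, at 7.32 to 9.11 TPM against 1.20 to 4.26 TPM, differed by 1.18, and without low purity well 4 by 0.91, which was under the threshold. Of 13 streak and mesendoderm genes 11 were tested, 6 were called with the higher level in high purity and 1 in low purity. That 1 gene was NODAL, the TGF-beta family ligand that sustains the streak, at 13.0, 9.60, 7.92 and 14.7 TPM in high purity and 71.1, 53.3, 64.0 and 75.5 TPM in low purity (-2.44 ± 0.20, limma adjusted p 2.97e-14).

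EBF2, a transcription factor also found in somites, was at 37.9, 34.4, 38.6 and 31.0 TPM in high purity and 1.47, 1.84, 1.14 and 1.42 TPM in low purity (3.85 ± 0.14, limma adjusted p 1.25e-25). RIPPLY1, a repressor that ends the segmentation programme in forming somites, was at 35.4, 41.7, 43.6 and 38.8 TPM against 1.85, 2.30, 2.31 and 2.82 TPM. FOXC1, a forkhead factor of paraxial mesoderm, was at 165, 149, 147 and 153 TPM against 35.7, 40.2, 36.7 and 33.9 TPM. Of 16 paraxial and presomitic genes 9 were tested, 6 were called with the higher level in high purity and 0 in low purity (median 1.44). Defining presomitic genes were low. TBX6 was at 1.44 to 3.84 TPM against 0.109 to 0.594 TPM and passed the filter only through the high purity wells. MSGN1 reached at most 2.32 TPM and did not pass the filter, and HES7 reached 0.753 TPM. The summed TPM of the list was 226 to 247 in high and 52.1 to 62.9 in low purity wells. The other genes with the largest differences towards high purity were DMBX1, SEMA5B, SAMD3, WDR93, RASGRP1 and NRG1, with differences of 2.87 to 3.42.

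Pluripotency genes differed in part. SOX2 was at 41.1, 42.4, 56.1 and 39.0 TPM in high purity and 4.78, 7.07, 8.13 and 4.37 TPM in low purity (2.71 ± 0.25, limma adjusted p 1.69e-12). NANOG was at 2.84 to 4.27 TPM against 0.325 to 0.944 TPM and passed the filter only through the high purity wells. Its direction was therefore largely set by the filter. TDGF1, a co-receptor for NODAL, was at 481 to 764 TPM against 155 to 191 TPM. Of 12 genes 11 were tested, 5 were called with the higher level in high purity and 0 in low purity. LIN28B and L1TD1 had negative differences of -0.41 and -0.38 that were not called, and ZFP42 had overlapping wells. POU5F1 was listed at no more than 0.333 TPM on day 4 and at 0.157 to 0.804 TPM in the pluripotent wells of day 0, so its entry cannot be used.

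The miR-302 cluster, microRNAs of pluripotent cells, gave few reads over its hairpins in these poly(A) libraries, which do not measure the mature microRNAs. The mature sequences from the 3p side of each hairpin (RefSeq, GRCh38.p14, chromosome 4, minus strand) are shown. They set out which members share a seed, bases 2 to 8, in capitals.
miR-302a-3p: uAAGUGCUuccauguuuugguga
miR-302b-3p: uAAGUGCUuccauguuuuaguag
miR-302c-3p: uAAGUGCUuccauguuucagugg
miR-302d-3p: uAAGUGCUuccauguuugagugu
miR-367-3p: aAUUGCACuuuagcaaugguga
On this side the 4 miR-302 members share 1 seed and miR-367 has another. The 5p sequences of the miR-302 members, not shown, do not all share a seed. MIR302B had 15 to 19 reads in the high purity wells and 0 to 3 in the low purity wells (limma adjusted p 3.67e-10), and MIR302D had 18 to 31 against 0 to 6 reads (limma adjusted p 0.000732). MIR302A, MIR302C and MIR367 had separate wells, with means of 67.3, 129 and 108 TPM against 32.0, 48.8 and 36.2 TPM, and were not called.

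Genes of signalling pathways were split. In the FGF pathway the ligands FGF8 and FGF17 (1.62 and 1.91), the feedback inhibitors SPRY4 and DUSP4 (2.33 and 1.49) and the ETS factors ETV4 and ETV5 (2.39 and 2.23) were higher in high purity. ETV5 was at 40.7, 39.8, 43.9 and 41.1 TPM against 9.21, 7.20, 7.71 and 8.27 TPM. DUSP6, a phosphatase that dampens ERK, went the other way, at 59.4, 45.1, 44.8 and 55.5 TPM in high purity and 134, 125, 133 and 129 TPM in low purity (-1.32 ± 0.11, limma adjusted p 8.34e-14). The list had 15 tested genes, 6 called higher in high and 2 higher in low purity, the second being FGF18. FGF18 passed the filter only through the low purity wells.

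In the NODAL pathway, TDGF1, the transcription factor FOXH1 and the secreted inhibitor CER1 were higher in high purity, while NODAL itself was higher in low purity; 7 genes of the list were tested. Of 16 tested BMP genes the ligands BMP2 and BMP7 were called higher in high purity, and the ligand BMP5 and the decoy receptor BAMBI in low purity. BMP2 was at 336, 304, 349 and 315 TPM against 155, 172, 154 and 163 TPM. WNT feedback genes showed 0 of 12 called with the higher level in high purity and 2 in low purity, LEF1 (-1.07) and TNFRSF19 (-1.04). Over all tested genes 4.72% were called higher in high and 5.39% higher in low purity, so these counts are too small to set the list apart. Without high purity well 3 LEF1 lay at -0.97, and without high purity well 2 TNFRSF19 lay at -0.95, both uncalled. AXIN2, a standard WNT target, was at 0.79 and not called. FZD5, a WNT receptor, was at 224, 200, 261 and 188 TPM in high purity and 36.1, 43.9, 46.0 and 34.2 TPM in low purity. NRARP, a Notch target, was the only call among 12 tested Notch genes (1.74), where 10.1% of all tested genes were called. Of 7 tested cardiac mesoderm genes MESP1 was called higher in high purity, and PDGFRA and APLNR in low purity. MESP1, as given above, passed the filter only through the high purity wells. Without high purity well 2 or 3 PDGFRA lay at -0.99 and -0.96 and was not called. APLNR, the apelin receptor, was at 101, 69.3, 72.0 and 90.4 TPM against 260, 231, 227 and 239 TPM.

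Of 14 proliferation genes 0 were called in either direction, with a median of -0.0067, and without the 2-fold threshold MKI67, TOP2A, CDK1, BUB1 and MCM5 passed an adjusted p under 0.05 with differences of -0.49 to 0.39. CDKN1A, an inhibitor of the cell cycle, was at 3.14, 3.82, 3.20 and 2.56 TPM in high purity and 41.6, 35.7, 33.1 and 40.4 TPM in low purity (-3.17 ± 0.16, limma adjusted p 9.11e-21). Of 21 glycolysis and hypoxia genes ENO2, ALDOC, DDIT4 and BNIP3 had more transcript in high purity, and PDK1 had more in low purity. BNIP3, a mitophagy receptor induced by low oxygen, was at 309 to 479 TPM against 163 to 183 TPM on day 4, and on day 2 the class means were 3199 and 653 TPM. The 5 genes of the imprinted DLK1-MEG3 region were all called higher in high purity. MEG3, its long noncoding RNA, was at 21.9, 26.5, 38.9 and 27.6 TPM against 5.68, 6.08, 6.78 and 5.08 TPM. RTL1, another of the 5, was at or under 0.413 TPM in the low purity wells. It passed the filter only through the high purity wells, so its direction was largely set by the filter. MT1X, a metal-binding metallothionein, had 0 reads in the 4 low purity wells and 2.46 to 4.89 TPM in high purity, at least 1.63-fold higher with 3 reads per well as the floor. MT1X too passed the filter only through the high purity wells. On day 2 its class means were 208 and 4.91 TPM. Of 12 tested genes of adhesion and epithelial-mesenchymal transition 4 were called higher in high purity, among them CDH1, E-cadherin, at 98.8, 103, 128 and 85.0 TPM against 23.5, 33.5, 32.8 and 29.2 TPM. VIM, the intermediate filament vimentin, and TWIST1 were called higher in low purity (-1.34 and -1.48). Of 7 tested immediate early and stress genes JUN and ATF3 were called higher in low purity, JUN at 12.7, 14.0, 12.8 and 17.2 TPM against 80.8, 76.3, 74.4 and 91.4 TPM. Without high purity well 4 ATF3 lay at -0.94 and was not called.

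Markers of cell types outside heart mesoderm were mixed. SOX17, an endoderm and endothelial factor, was at 74.3, 75.7, 88.9 and 73.9 TPM in high purity and 26.5, 29.1, 28.5 and 29.0 TPM in low purity (1.44 ± 0.18, limma adjusted p 9.47e-09). APOA1 and TTR, secreted proteins of liver-type endoderm, were higher in low purity. TTR had 0 or 1 read in each high purity well and 58 to 84 reads in each low purity well. Of 8 tested endoderm genes 2 were called higher in high and 3 higher in low purity. Of these 3, AFP and TTR passed the filter only through the low purity wells, so their direction was largely set by the filter. CD34, a marker of blood and endothelial progenitors, was at 12.1, 13.9, 15.4 and 8.61 TPM against 2.36, 3.16, 3.20 and 1.80 TPM, while CDH5 and PECAM1, defining endothelial genes, reached at most 0.341 and 0.675 TPM. Of 9 neuroectoderm genes only SIX3 was tested, at 3.59 to 8.52 TPM against 0.104 to 0.893 TPM. It passed the filter only through the high purity wells, so its direction was largely set by the filter. PAX6 and SOX1 reached at most 0.104 and 0.0745 TPM. The summed TPM of the neuroectoderm list was 5.87 to 10.4 in high and 0.987 to 2.68 in low purity wells. Of 4 tested amnion and surface ectoderm genes GATA3 was called higher in high purity, and GABRP and KRT7 in low purity. KRT7 too passed the filter only through the low purity wells. With RLE scaling, in the fit on days 2, 4 and 6, and without high purity well 1 or 2 or low purity well 1, GATA3 lay at 0.95 to 1.00 and was not called. Of 7 tested endothelial genes CD34 and, in the other direction, TEK were called, and without high purity well 2 or low purity well 2 or 3 TEK lay at -0.96 to -0.99 and was not called. The part of such cells in the other differences was not tested.

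**Figure D3:**
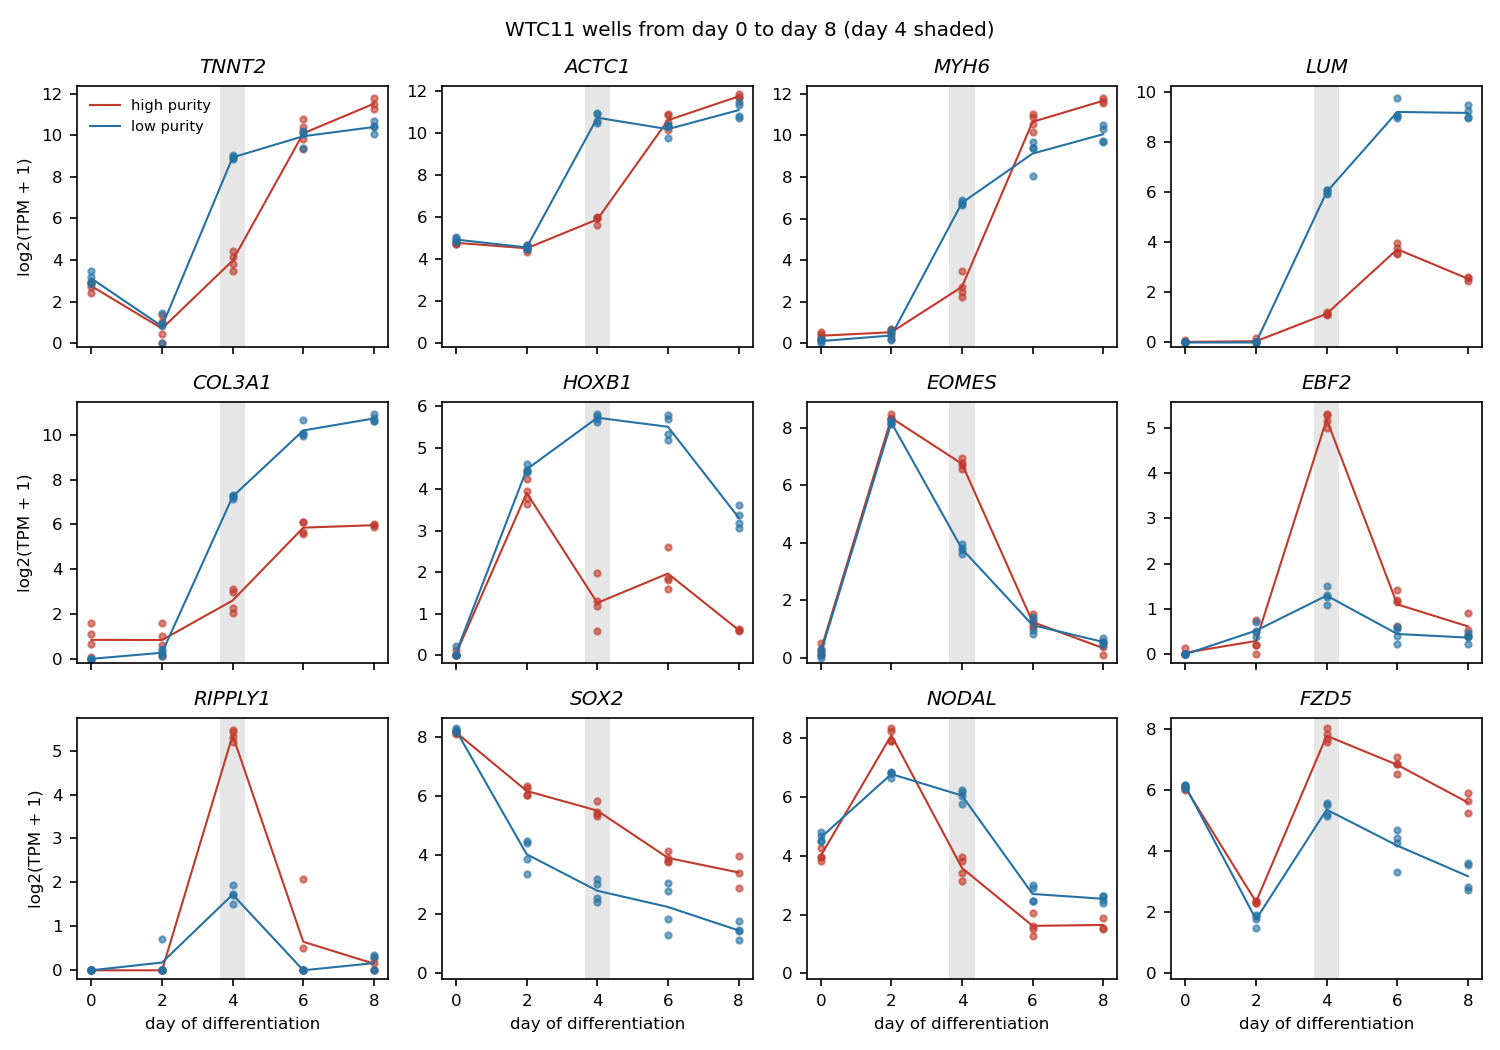
log2(TPM + 1) of 12 genes from day 0 to day 8, with 1 point per well, lines through the class means and day 4 shaded. TNNT2 and ACTC1 differ on day 4 and meet on day 6, LUM, COL3A1 and HOXB1 stay apart, and EBF2 and RIPPLY1 peak on day 4 in high purity.

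Genes were then sorted by their change from day 2 to day 6 in each class. The day 4 wells are not part of that difference, but they set the filter on low values and entered the shared estimate of the spread. With the filter over all 56 libraries, 3038 genes had a shared course as defined next. There were 2477 genes (12.8%) that were called in both classes in the same direction, and these are termed shared-course genes. Of the 1957 day 4 calls, 696 (35.6%) were shared-course genes whose day 4 level in low purity lay further in the direction of the shared change, 436 of them rising and 260 falling, and these are termed low purity ahead in level. In 81 (4.14%) the high purity level lay further, 64 rising and 17 falling. A class ahead in level need not have covered more of its own change, since the classes could also differ on days 2 and 6. Genes with a day 4 peak in 1 class were sorted in the same way. In high purity, CYP26A1 means on days 2, 4 and 6 were 29.2, 224 and 12.6 TPM, and those of RASGRP1 26.6, 103 and 10.9 TPM. Both count as falling genes with low purity ahead in level, though high purity rose to day 4 first. The other 1180 calls (60.3%) did not share a course, 590 in each direction.

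The position of day 4 between day 2 (0) and day 6 (1) of the same class was computed for each shared-course gene. Its median was 0.664 in high and 0.829 in low purity, and the low purity position was further along in 1722 of 2477 genes (69.5%). By well, the median ran from 0.642 to 0.682 in high and from 0.823 to 0.839 in low purity, so the 4 wells of each class lay closer to each other than to the other class. Rising genes had medians of 0.615 and 0.806, and falling genes 0.713 and 0.855. On an axis shared by both classes, the mean of their day 2 and day 6 levels, the medians were 0.611 and 0.864. The position of low purity was the further one in 642 of the 696 calls with low purity ahead in level (92.2%). That of high purity was further in 65 of the 81 with high purity ahead in level (80.2%). Both shares were largely set by the choice of genes, since level and position use the same day 4 means. These medians and counts describe the genes that moved in both classes and have no test.

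Sarcomere genes were mostly of this shared kind: 18 of 19 tested had a shared course and 17 were calls with low purity ahead in level. TNNT2 means went from 0.746 TPM on day 2 to 1165 TPM on day 6 in high purity and from 0.870 to 1012 TPM in low purity, and its day 6 difference of 0.11 was not called. ACTC1 was at 1612 and 1191 TPM on day 6, and its low purity wells on day 4 were already above that low purity mean in all 4 cases. All 7 smooth muscle calls were also shared-course genes with low purity ahead in level, and ACTA2 means reached 363 and 528 TPM on day 6 with no call. Among falling genes, EOMES means went from 327 to 1.37 TPM in high and from 291 to 1.22 TPM in low purity between day 2 and day 6. EOMES was called between the classes on neither of those days and was apart on day 4.

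Fewer genes had high purity ahead in level. FZD5, CFC1 (a co-receptor of NODAL signals), DLK1 and N4BP2L1 rose in both classes, with FZD5 means on day 6 of 113 and 18.1 TPM. FZD5 and CFC1 were ahead in level in high purity but not in position, which for FZD5 was 1.23 in high and 1.50 in low purity. NODAL fell in both classes, from day 2 means of 278 and 109 TPM (high and low purity) to 2.12 and 5.59 TPM on day 6. NODAL was therefore higher in high purity on day 2 and higher in low purity on days 4 and 6. MYL3 was the only sarcomere gene here, with day 6 means of 143 and 201 TPM.

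**Figure D4:**
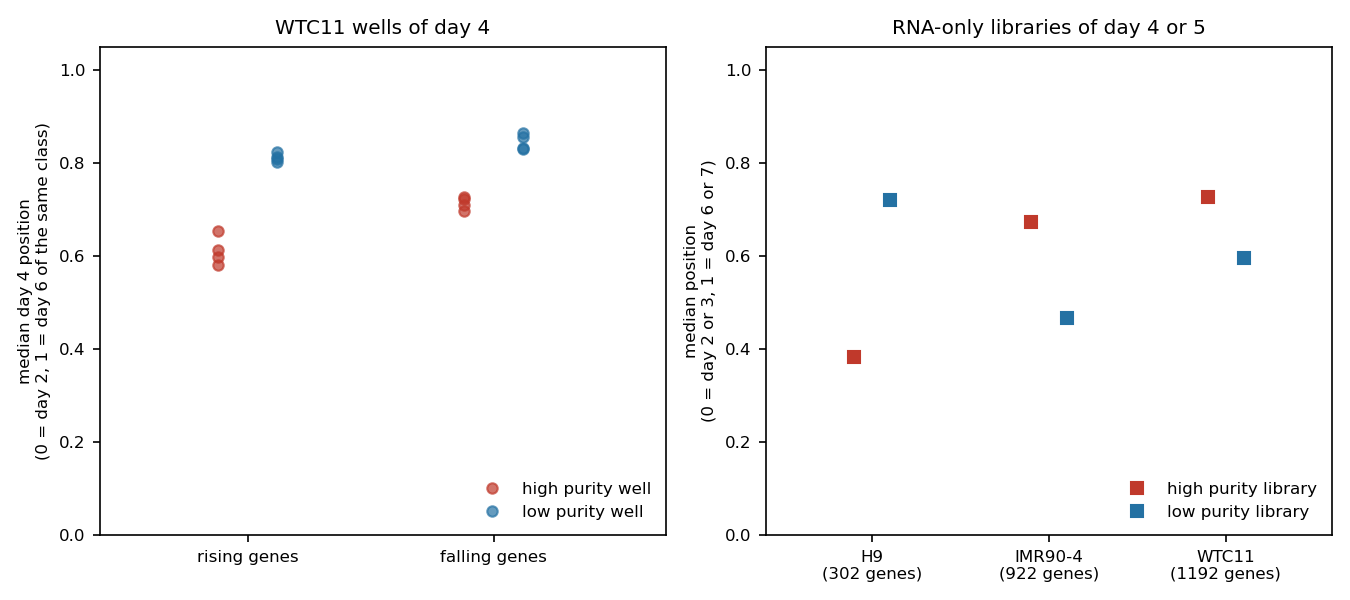
Left, the median position of each day 4 well between day 2 and day 6 of its class, for rising and falling shared-course genes. Right, the same for single RNA-only libraries of 3 lines, where the low purity library is ahead in H9 and the high purity library in IMR90-4 and WTC11.

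Of the 1957 day 4 calls, 679 were called the same way on day 6, 66 the opposite way and 1212 were not called on that day, when 1902 of the tested genes (9.83%) were called. Day 2, with 1124 calls (5.81%), shared 241 with the same direction. Day 16, with 2681 calls (13.8%), shared 472 in the same and 166 in the opposite direction. The days share no wells, but each compares the same 2 differentiations. In mean absolute log2 distance over tested genes, the low purity day 4 wells lay 0.520 from the high purity mean of day 4, 0.538 from that of day 6 and 0.807 from that of day 2. The high purity day 4 wells lay 0.521 from the low purity mean of day 4, 0.616 from that of day 2 and 0.634 from that of day 6. Each class was thus nearest to the other class on the same day, and the low purity wells were nearly as close to high purity day 6.

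Of the 1180 calls without a shared course, 428 were called the same way on day 6, 173 higher in high and 255 higher in low purity, and 187 of the 428 again on day 16. The share called the same way on day 6 was 36.3% for these 1180, 31.6% for the calls with low purity ahead in level (220 of 696) and 38.3% for those with high purity ahead (31 of 81), so calls kept on day 6 were found in all 3 sets. Another 723 were no longer called on day 6. By course, 613 of the 1180 genes were called from day 2 to day 6 in neither class. Calls in low purity alone were 252 rising and 124 falling genes, and calls in high purity alone 119 rising and 62 falling. In 8 genes high purity fell and low purity rose, and in 2 the reverse. A gene without a call could still have moved by less than 2-fold. HOXB1, C16orf54, MXRA5 and SEMA5A, a membrane semaphorin, were the largest protein-coding differences kept on day 6. HOXB1 class means on day 6 were 3.05 and 45.0 TPM. SEMA5A was at 4.06, 2.93, 3.98 and 3.54 TPM against 78.4, 73.6, 72.0 and 78.9 TPM on day 4, and its means were 20.4 and 78.2 TPM on day 6. HOXB6 was kept on both day 6 and day 16, with day 16 means of 0.372 against 12.1 TPM.

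EBF2, RIPPLY1, NRG1 and CDKN1A were the largest protein-coding differences without a shared course that were no longer called on day 6. EBF2 means were 0.249 and 0.440 TPM on day 2 and 1.19 and 0.371 TPM on day 6, so its high level was seen on day 4 and not on the days beside it. RIPPLY1 was at 0 and 0.158 TPM on day 2 and at 0.917 and 0 TPM on day 6. NRG1, a growth factor for the heart, was at 19.6, 18.5, 21.8 and 18.3 TPM in high purity on day 4 and at 1.17 TPM on day 6. CDKN1A had day 2 means of 38.6 and 33.6 TPM and day 6 means of 29.5 and 56.5 TPM, so its high purity level on day 4 was low against both. The day 6 difference of CDKN1A was -0.95 (limma adjusted p 4.21e-06), just under the 2-fold threshold. LUM, COL3A1 and BNC1 had a shared course and were called the same way on day 6 too, LUM at 12.3 against 603 TPM.

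The 66 genes that were opposite on day 6 included muscle genes. MYH6 had means of 1654 and 606 TPM (high and low purity) on day 6, a difference of 1.50 after -4.01 on day 4. SMYD1, a methyltransferase of muscle, went from -3.63 to 1.86, XIRP1, an actin-binding protein of muscle junctions, from -3.97 to 1.37, and MEF2C from -2.22 to 1.57. APLNR and DUSP6 went from -1.51 to 1.47 and from -1.32 to 1.06. The difference changed between day 4 and day 6 in each of these genes and in TTR, and the highest limma adjusted p of that change was 2.02e-14. Since these genes were chosen for opposite calls in the same fit, that result was nearly certain. Over all tested genes the change between the days was called in 1600, and in 749 of the 1957 day 4 calls.

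The same genes were then read in the RNA-only experiment, made with a total RNA kit and normalized separately, with 1 library per differentiation and therefore no test. On day 4 or 5, H9, an embryonic line (high purity at passage 58, low at passage 55), had TNNT2 at 2.82 TPM in the high and 28.9 TPM in the low purity library. IMR90-4, an induced line (high at passage 55, low at passage 75), had 5.79 and 1.60 TPM. The WTC11 libraries there (high at passage 81, low at passage 69) had 2.78 and 0.613 TPM. The low purity WTC11 library of passage 69 was thus far under the 457 to 524 TPM of the multi-omic low purity wells of the same day and passage; whether both came from the same differentiation is not stated. LUM was at 153 TPM in low and 1.21 TPM in high purity H9 and at or under 0.988 TPM in the other 4 libraries. HOXB1 was at 101 against 5.92 TPM in H9, but at 1.08 TPM in low and 10.8 TPM in high purity WTC11.

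**Figure D5:**
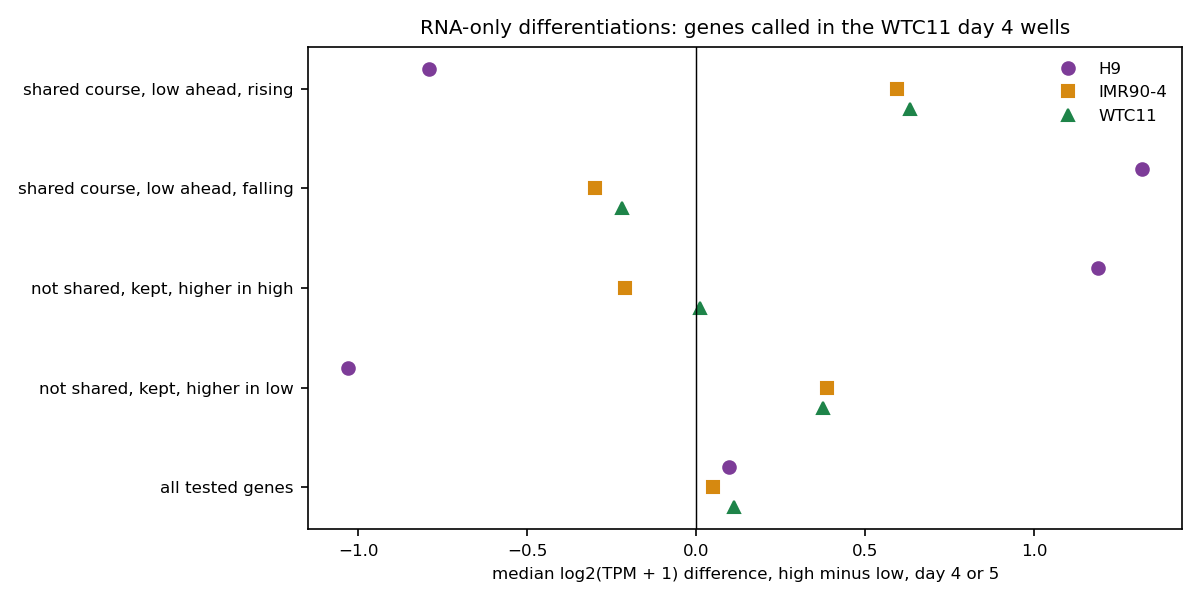
Median difference, high minus low on the log2(TPM + 1) scale, in the RNA-only libraries of day 4 or 5 for groups of genes called in the WTC11 day 4 wells. Rising genes with low purity ahead in level have a negative median in H9 and positive medians in IMR90-4 and WTC11.

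The rising genes with low purity ahead in level had a median difference of -0.79 in H9, 0.595 in IMR90-4 and 0.633 in WTC11, and the falling ones 1.32, -0.3 and -0.22. Over all tested genes present there the medians were 0.0962, 0.0495 and 0.113. For genes kept on day 6 without a shared course, those higher in high purity had medians of 1.19, -0.211 and 0.0108 in these lines. Those higher in low purity had medians of -1.03, 0.388 and 0.375. In H9, 57.4% of the kept genes higher in high purity were at least 2-fold higher in high purity, against 7.86% of all tested genes. In IMR90-4 the shares were 1.32% and 2.2%, and in WTC11 4.46% and 2.39%. Of the same kept genes, 2.21% were at least 2-fold higher in low purity in H9 (4.63% of all tested genes). That share was 13.2% in IMR90-4 (1.26%) and 7.01% in WTC11 (1.41%). Over shared-course genes that also moved at least 2-fold in both classes of a line, the median position was 0.382 in high and 0.72 in low purity H9 (302 genes), 0.673 and 0.467 in IMR90-4 (922 genes), and 0.727 and 0.596 in WTC11 (1192 genes). The low purity differentiation was further along in 1 of these 3 lines.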

How the data were processed

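Reads were aligned with STAR 2.5.3a and counted with featureCounts 2.0.3 on hg38, per the submitters' processing notes; how the deposited TPM were computed is not given in the sources used here. The authors deposited read counts per gene and TPM for each experiment (43388 genes). Of the 8 day 4 columns of the multi-omic count table, 0 matched the same-named TPM column read for read and 8 matched a column of another name, so TPM was used; depth is given as reads recovered from TPM with gene lengths solved from the RNA-only tables, which came out whole (within 1%) for 100% of values in 37194 genes. TPM was scaled by TMM (edgeR 4.0.16) and log2(TPM + 1) entered limma 3.58.1 (limma-trend, R 4.3.3) with 16 class-by-day means over 56 libraries (40 residual degrees of freedom) and Benjamini-Hochberg adjustment over 19358 genes. The log2 differences understate changes of low genes. Alternatives included edgeR and DESeq2 1.42.0 on recovered reads. Named genes were the 10 largest protein-coding calls in each direction with at least 10 TPM and separate wells, up to 4 calls per direction of each of 29 lists, the 4 largest of each kind of course, and 17 set genes; other list members, the outside markers and the group ranges were chosen after their values were seen. The lists and comparisons were chosen with earlier results of these data known. The fit was checked on simulated data. RefSeq positions matched 90% of tested genes. Of 15 mitochondrially encoded genes only RNR1 and RNR2 were found by name (RNR1 was called higher in low purity, with overlapping wells). Some results are not reported here.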

Additional observations from a re-analysis of the deposited data

Results flagged for a closer look

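In 6 of 242 groups of 4 wells of the named genes, 1 well stood far from the other 3 by Dixon's criterion, where chance gives about 1 in 20. BNC1 was at 3.62 TPM in 1 high purity well and 5.15 to 5.43 TPM in the others, KRT7 at 0.256 against 0.0679 to 0.0859 TPM, SOX17 at 88.9 against 73.9 to 75.7 TPM, and TTR at 0.212 against 0 TPM. In low purity, ISL1 was at 29.8 against 32.0 to 32.4 TPM and NRARP at 1.81 against 2.75 to 2.90 TPM.

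The class difference on day 4 minus that on day 6 was -2.98 for APLNR, -2.38 for DUSP6, -3.78 for MEF2C, -5.51 for MYH6, -5.49 for SMYD1, -6.19 for TTR and -5.34 for XIRP1. All were chosen for opposite calls on the 2 days. Each passed the limma test of the change, which that choice made nearly certain.

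The median difference of the rising genes with low purity ahead in level was -0.79 in H9, 0.595 in IMR90-4 and 0.633 in the RNA-only WTC11 libraries; the difference between the lines was not tested, since each has 1 library per class.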

How the results depend on the processing

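None of the 121 named genes reversed under the alternatives run, and 11 lost their call under at least 1. RNR1 kept a difference of -1.53 to -2.22 but had adjusted p-values of 0.0973 to 0.148 in the limma fits on the day 4 wells with and without the block and without high purity well 3 or low purity well 1. SNAI1 without high purity well 1 or low purity well 1 (0.92, 0.87) and MT1F without high purity well 2 or 4 (0.97, 0.84) fell under 2-fold. The other 8 are given above. Leaving out each well in turn gave 1873 to 2012 calls. With a pseudocount of 0.1, 1408 genes were higher in high purity, 1061 calls had low purity ahead, 164 had high purity ahead and the low purity position was 0.822; without scaling that position was 0.821. edgeR and DESeq2 on recovered reads called 1434 and 1398 genes higher in high purity. With no 2-fold threshold there were 9103 calls (4764 higher in high, 4339 higher in low), 8168 shared-course genes, 3507 calls with low and 1306 with high purity ahead, 4290 without a shared course and 216 list members. With a 4-fold threshold these were 360 (116, 244), 854, 118, 7, 235 and 51. The high and low purity positions were 0.706 and 0.862 with no filter on low values, 0.714 and 0.866 with the filter over all 56 libraries, 0.513 and 0.695 on a course to day 8, and 0.611 and 0.864 on the axis common to both classes, which was chosen after seeing the data. With only genes alike on days 2 and 6, 386 calls had low and 41 high purity ahead. Well numbers did not pair the wells (same-number correlations of 0.00289 to 0.0237), and the replicate block on the day 4 wells gave 2055 calls, the same number as those wells without it. Depth differed between the classes, and genes at a few reads, such as MIR302B, are the least precise.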
